A study of Mus musculus with 768 samples.

Results

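The 6 genes described here are the Ebf factors EBF1, EBF2 and EBF3 and the Onecut factors ONECUT1, ONECUT2 and ONECUT3, written in capitals as the deposited table has them. They are 6 of the 27723 gene rows of a single-cell RNA table, taken by their names. The cells were mouse embryonic stem cells of the strain Ainv15(iNgn2.Isl1.Lhx3.V5), which carry a doxycycline-inducible cassette of Ngn2, Isl1 and Lhx3, factors known to drive such cells towards motor neurons. Embryoid bodies, free-floating balls of differentiating cells, were formed 2 days before doxycycline (3 µg/ml). Cells were taken without doxycycline (0 h) or 6, 12, 18, 24, 30, 36 and 48 h after it was added, 96 per time point, so that every group, the 0 h cells included, carried the cassette. Reads of LHX3, ISL1 and NEUROG2 can come from the cassette or from the cell's own gene, which these values cannot separate.

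Ebf proteins (early B cell factors, also called COE proteins) bind DNA as dimers through a zinc-coordinating domain and a helix-loop-helix region. Ebf1 is best known as the factor that commits lymphoid progenitors to B cells, and Ebf genes are also known in newborn neurons, where they act after proneural basic helix-loop-helix factors such as Neurog2. Onecut proteins bind DNA through 1 cut domain and a homeodomain, and are known from liver, pancreas, retina and spinal cord, where Onecut genes are on in newly born motor neurons and help to hold Isl1 on. Whether these genes come on after the cassette, in which order and in which cells is the question the time course allows.

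Because members of a family can share sequence, and the reads were 50 bases long, the first point to settle is whether a read can be told to come from one member. Of all 50-base windows of the protein-coding transcripts of these genes (GENCODE M21, build GRCm38), the Ebf genes shared 0 with each other. The longest exact stretches common to each pair of Ebf coding sequences were shorter than a read, and are shown because they are the places where the family is most alike.
Ebf1 and Ebf2, 17 bases: atcaaagccatcagccc
Ebf1 and Ebf3, 24 bases: gagccgctgggcagcggcatgaac
Ebf2 and Ebf3, 23 bases: ctggcgctctacgacaggcaggg
Onecut1 and Onecut3, 50 bases: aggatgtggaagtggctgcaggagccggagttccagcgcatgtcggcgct
The Ebf1 and Ebf2 stretch lies in coding exon 9 of Ebf1 (chr11:44907918-44907934, plus strand) and exon 10 of Ebf2 (chr14:67389627-67389643, plus strand). The Ebf1 and Ebf3 stretch lies in exon 1 of each (chr11:44618230-44618253 and chr7:137313839-137313862, minus strand for Ebf3). The Ebf2 and Ebf3 stretch lies in exon 3 of Ebf2 (chr14:67237528-67237550) and exon 2 of Ebf3 (chr7:137313573-137313595). Onecut1 and Onecut3 share exactly 1 window of read length, in coding exon 1 of both (chr9:74863341-74863390 and chr10:80496130-80496179, plus strand), which is 0.0256% of the windows of Onecut1.

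Overlapping genes leave more doubt than paralogs. The noncoding gene Gm20649 overlaps Onecut1 on the same strand and holds 54.3% of its windows, so the split of reads between them is uncertain, and the table has no row for Gm20649. Antisense genes cover 5.88% of the Ebf2 windows (Gm10860) and 3.92% of the Ebf3 windows (Gm45278), also without rows of their own. The table has no row named EBF4, and RefSeq lists Ebf3 among the older names of Ebf4, so the row EBF3 is read here as Ebf3 without proof from the table.

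The upstream sequence of Ebf1, one of the first members to reach high levels, is shown for both start sites that RefSeq gives (GRCm38.p6), because Neurog2 belongs to the proteins that bind E-boxes (CANNTG). Capitals mark that motif, searched on both strands, which reads the same on each.
Ebf1 first start: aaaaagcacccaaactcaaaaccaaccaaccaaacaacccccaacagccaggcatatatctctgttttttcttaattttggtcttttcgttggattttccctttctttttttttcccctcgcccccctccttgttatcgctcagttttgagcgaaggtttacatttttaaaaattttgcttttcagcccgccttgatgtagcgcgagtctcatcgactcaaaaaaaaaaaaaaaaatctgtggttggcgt
Ebf1 second start: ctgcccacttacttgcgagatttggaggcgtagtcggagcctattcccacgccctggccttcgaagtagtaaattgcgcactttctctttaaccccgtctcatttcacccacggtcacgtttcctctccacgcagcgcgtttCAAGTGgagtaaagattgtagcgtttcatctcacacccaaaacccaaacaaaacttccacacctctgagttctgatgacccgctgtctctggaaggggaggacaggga
The 250 bases before the first start (chr11:44617850-44618099, plus strand) hold 0 matches, and those before the second start (chr11:44619978-44620227) hold 1, which begins 108 bases before the start. Of 32544 promoters of the same length, 66.2% hold at least 1 such match. The match is therefore a common one, and it describes these letters only.

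Of 768 cells, the 368 in which 2000 or more genes were above 0 were kept. The libraries fall into 2 sets by their level of Sod1: at 0, 12, 36 and 48 h the mean SOD1 level was 19550 to 65260 TPM (a share of a cell's transcripts, scaled for transcript length and to the same total in each cell), and at 6, 18, 24 and 30 h it was 518 to 807 TPM. They are called the Sod1-high and Sod1-low sets, and no comparison crosses them. The labels say that libraries were made in 2 batches without saying which cells belong to which. In the Sod1-high set 37, 52, 44 and 14 cells were kept at 0, 12, 36 and 48 h, and the median number of genes above 0 went from 5304 through 4268 and 2894 to 2141. In the Sod1-low set 53, 56, 55 and 57 cells were kept at 6, 18, 24 and 30 h, with medians of 7484, 7348, 6676 and 6481 genes. HPRT, a gene most cells use, was listed at 0 in most cells of the Sod1-high set (above 0 in 7.14 to 20.5%) and in part of the Sod1-low cells (above 0 in 59.6 to 67.9%), so a member at 0 is only listed at 0. Each time point is 1 sample, with no separate culture named, so differences carry no test and cells are not replicates. Intervals are exact (Clopper-Pearson) 95% binomial limits and cover counting error only.

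EBF1 and EBF2 were the first members to reach 10 TPM in at least 10% of cells in both sets, together with ONECUT2 in one of them. With a gene called on at the first time when at least 10% of kept cells reached 10 TPM, the order in the Sod1-high set was EBF1 (21.2% of cells), EBF2 (32.7%) and ONECUT2 (13.5%) at 12 h, EBF3 (11.4%) at 36 h and ONECUT3 (14.3%, which is 2 of 14 cells) at 48 h. ONECUT1 did not reach that share. In the Sod1-low set EBF2 (41.1%) and EBF1 (12.5%) reached it at 18 h and EBF3 (10.9%) at 24 h. For EBF1 this was a step of few cells: the share was 9.43% (3.14 to 20.7) at 6 h, 12.5% (5.18 to 24.1) at 18 h and 8.77% at 30 h. No Onecut gene reached it by 30 h. LHX3 was already at 35.9% of cells at 6 h and at 48.1% at 12 h by the same measure, ahead of or together with the members.

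The order depends on the level asked for. With any value above 0, EBF1, EBF3 and ONECUT3 passed 10% of cells at 0 h already, and in the Sod1-low set all 6 genes did so at 6 h. Single cells held high values at 0 h too, up to 152 TPM of EBF1 and 98.3 TPM of EBF2. The lowest positive EBF1 value was 1.84, 3.5, 6.76 and 12.8 TPM at 0, 12, 36 and 48 h, times at which genes per cell fell. For ONECUT2 it was 1.35, 0.46, 0.83 and 9.3 TPM. EBF3 reached 10 TPM in 2 of 5 positive cells at 12 h and 5 of 5 at 36 h, with 9.62 and 11.4% of cells above 0. The part of depth in the order was not tested.

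**Figure D1:**
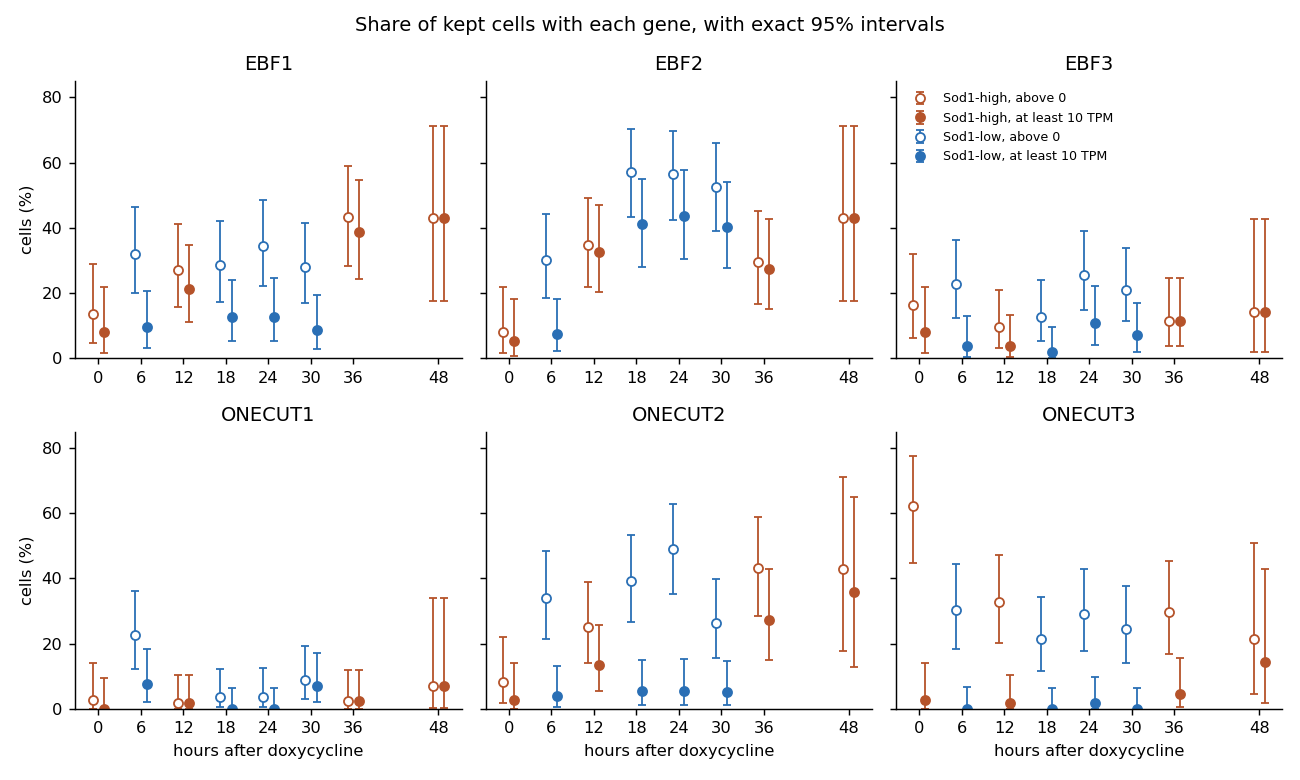
Share of kept cells (vertical axis, percent) with each of the 6 genes above 0 TPM (open circles) and at 10 TPM or more (filled circles) against hours after doxycycline, in the Sod1-high set (brown) and the Sod1-low set (blue), with exact 95% intervals. The filled circles of EBF2 go from 5.41% at 0 h to 32.7% at 12 h and from 7.55% at 6 h to 41.1% at 18 h, while those of ONECUT1 stay at or under 7.55%.

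By mean level, 3 of the 5 members that could be compared were at least 2-fold higher at 12 h than at 0 h, where 19.3% of all 10395 genes compared were. A gene was compared when its share of cells above 0, averaged over both times, was at least 10%, which ONECUT1 was not in this set. Folds are log2 ratios of (mean TPM + 1), which understate the change of low genes. From 12 to 36 h the count was 4 of 5, beside 23.7% of all genes. In the Sod1-low set the members stood nearer to the background: from 6 to 18 h 1 of 6 was higher (10.4% of all genes) and 1 of 6 lower (6.45%), and from 6 to 30 h 1 of 6 was higher (14.4%).

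EBF2 had the largest early difference of the members compared. Cells above 0 numbered 3 of 37 at 0 h, 18 of 52 at 12 h, 13 of 44 at 36 h and 6 of 14 at 48 h, and its mean was 2.95, 153, 97.2 and 416 TPM. The highest single cells held 98.3, 1175, 803 and 2937 TPM, and the median cell was at 0 at all 4 times. EBF2 was thus listed at 0 in most cells while a minority held much of it: at 12 h the median among positive cells was 429 TPM. The log2 fold change was 5.29 from 0 to 12 h and -0.65 from 12 to 36 h. Over all cells, those with fewer genes included, the first of these was 1.30, and it was 4.46 and 7.48 in odd-numbered and even-numbered cells. Its share of cells was 26.5 percentage points higher at 12 h than at 0 h, while the median gene's share was 9.46 points lower.

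EBF2 in the Sod1-low set was above 0 in 16 of 53 at 6 h, 32 of 56 at 18 h, 31 of 55 at 24 h and 30 of 57 at 30 h. The share was 30.2% (95% interval 18.3 to 44.3) at 6 h and 57.1% (43.2 to 70.3) at 18 h, and 52.6% (39.0 to 66.0) at 30 h. Mean levels were 7.53, 18.9, 25.8 and 27.7 TPM, with medians over cells of 0, 1.64, 2.6 and 1.09 TPM and highest cells at 158, 131, 151 and 221 TPM. The log2 fold change was 1.23 at 18 h and 1.75 at 30 h against 6 h. The 30 h value rests on which cells are taken: it was 4.03 in odd-numbered and 0.71 in even-numbered cells, and -0.031 over all cells, and the 6 h mean owes 39.7% of its sum to 1 cell.

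EBF1 had higher means at each later time of the Sod1-high set. It was above 0 in 5 of 37, 14 of 52, 19 of 44 and 6 of 14 cells at 0, 12, 36 and 48 h, with means of 5.96, 90.3, 292 and 387 TPM. The log2 fold change was 3.71 from 0 to 12 h and 1.68 from 12 to 36 h. At 36 h EBF1 reached 10 TPM in 38.6% of cells (24.4 to 54.5) and EBF2 in 27.3% (15.0 to 42.8), intervals that overlap. The 48 h mean rests on 1 cell of 4603 TPM, which holds 85.0% of the sum.

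EBF1 in the Sod1-low set showed no such course. It was above 0 in 17 of 53, 16 of 56, 19 of 55 and 16 of 57 cells at 6, 18, 24 and 30 h, with means of 4.08, 3.89, 6.65 and 3.46 TPM. At 30 h against 6 h the log2 fold change was -0.19. The cells at 10 TPM or more were 5, 7, 7 and 5.

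EBF3 was found in fewer cells than EBF1 and EBF2 at every time but 0 h. In the Sod1-high set it was above 0 in 6 of 37, 5 of 52, 5 of 44 and 2 of 14 cells, with means of 3.09, 1.96, 22.8 and 18.0 TPM. Its share of cells hardly moved from 12 to 36 h (9.62 and 11.4%), and the log2 fold change of 3.01 between these times came from the level in few cells: at 36 h the lowest positive cell held 16.4 TPM and the highest 479. In the Sod1-low set it was above 0 in 12 of 53, 7 of 56, 14 of 55 and 12 of 57 cells, with means of 1.96, 0.58, 3.03 and 2.17 TPM.

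**Figure D2:**
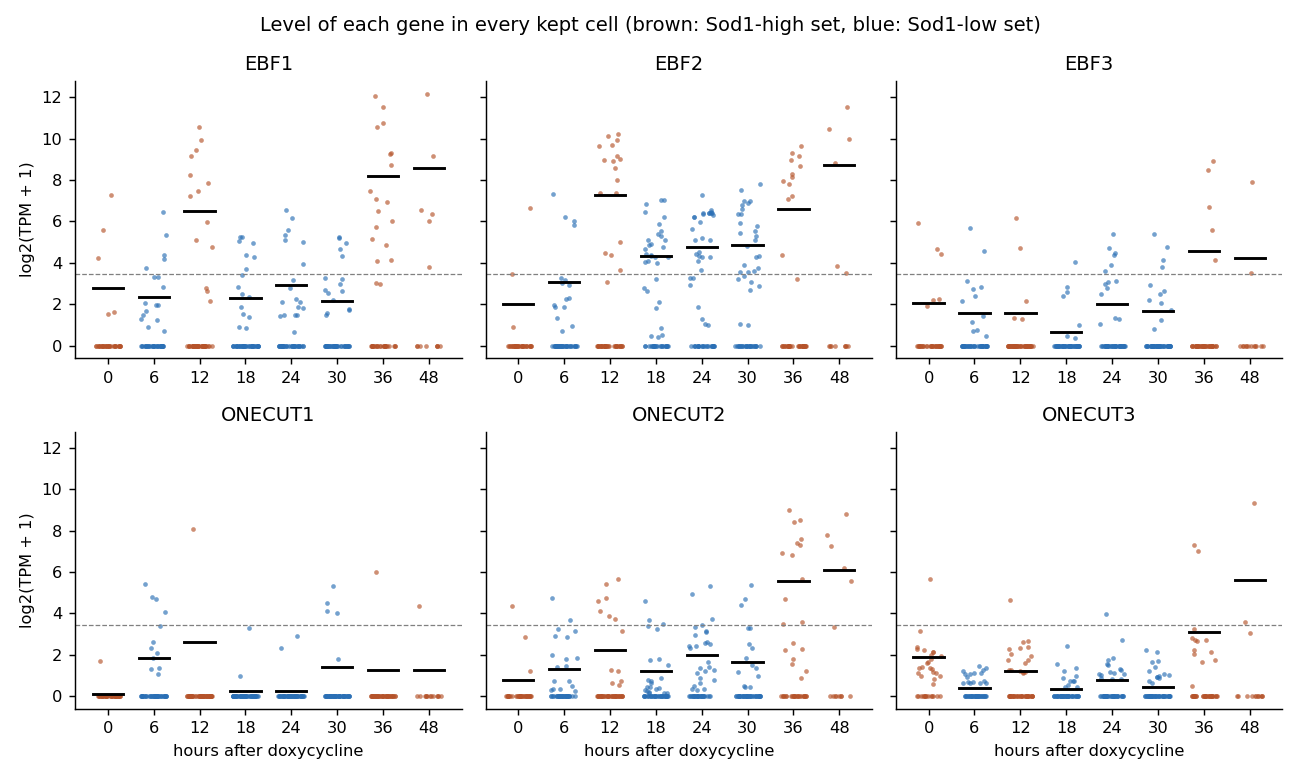
Level of each gene in every kept cell (points, log2 of TPM + 1) against hours after doxycycline, in the Sod1-high set (brown) and the Sod1-low set (blue). Black bars mark the mean TPM on the same scale and the dashed line 10 TPM. At 36 h EBF1 reaches 4270 TPM, EBF2 803 TPM and ONECUT2 516 TPM in single cells, while most other cells are at 0.

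ONECUT2 was the Onecut gene with a clear time course in the Sod1-high set. It passed 10% of cells at 12 h both above 0 (25.0%) and at 10 TPM (13.5%), while its mean took the larger step after 12 h. Cells above 0 numbered 3 of 37 at 0 h, 13 of 52 at 12 h, 19 of 44 at 36 h and 6 of 14 at 48 h, and its mean was 0.73, 3.73, 47.1 and 67.3 TPM. From 0 to 12 h its log2 fold change was 1.45, and from 12 to 36 h it was 3.34. EBF2 went the other way, 5.29 and then -0.65, so that the larger step came at 12 h for EBF2 and at 36 h for ONECUT2. The share of cells with ONECUT2 at 36 h was 43.2% (28.3 to 59.0) above 0 and 27.3% (15.0 to 42.8) at 10 TPM, and 26.0% above 0 over all cells. Median genes per cell fell from 4268 at 12 h to 2894 at 36 h, and the part of depth in the later step was not tested.

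ONECUT2 in the Sod1-low set was common but low. It was above 0 in 18 of 53, 22 of 56, 27 of 55 and 15 of 57 cells at 6, 18, 24 and 30 h, and at 10 TPM or more in 2, 3, 3 and 3. Means were 1.52, 1.33, 2.95 and 2.12 TPM, and the log2 fold change at 30 h against 6 h was 0.31. The annotated ONECUT2 transcript is long (16234 bases), and its median positive cell held 0.62 TPM at 18 h.

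ONECUT1, the founding member known from liver and pancreas, was almost absent in the Sod1-high set, with 1 positive cell at each of the 4 times. At the Sod1-low times positive cells were 12 of 53 at 6 h (22.6%, 12.3 to 36.2), 2 of 56 at 18 h (3.57%, 0.435 to 12.3), 2 of 55 at 24 h and 5 of 57 at 30 h (8.77%). Means were 2.57, 0.17, 0.19 and 1.67 TPM, and the highest cell at 6 h held 41.4 TPM. The intervals of 6 and 18 h overlap only at their ends, and the log2 fold change was -1.61. Of the 12 cells at 6 h, 9 also had EBF2 above 0, where 3.62 were expected from the shares of both genes. Cells with either gene at 6 h also had more genes above 0 than cells without it. The medians were 8050 and 7293 for ONECUT1 and 8080 and 7287 for EBF2, and the part of depth in the joint count was not tested. At 10 TPM ONECUT1 and EBF2 did not meet at 6 h, and the Gm20649 overlap applies to all these ONECUT1 values.

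ONECUT3 was detected most often before doxycycline. At 0 h it was above 0 in 23 of 37 cells (62.2%, 44.8 to 77.5), with a median over cells of 1.16 TPM, and at 12, 36 and 48 h in 17 of 52, 13 of 44 and 3 of 14. The share was 32.7% at 12 h, where cells also had fewer genes above 0 (medians of 4268 and 5304), and the part of depth in this difference was not tested. Its mean was 2.73, 1.29, 7.52 and 47.6 TPM, and the last of these owes 97.3% of its sum to 1 cell of 649 TPM. At the Sod1-low times 16, 12, 16 and 14 cells were above 0, never above 14.7 TPM. Compared with the other members ONECUT3 gives mainly values of a few TPM in these cells.

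Onecut and Ebf genes met in the same cells more often than their shares give. At 10 TPM or more, 12 of 44 cells at 36 h had an Onecut gene and 24 had an Ebf gene, and all 12 Onecut cells were among the 24 Ebf cells, where 6.54 were expected from the shares. At 48 h all 6 Onecut cells had an Ebf gene (7 Ebf cells of 14), and at 12 h 6 of 8 did (21 of 52). Over 12, 36 and 48 h this was 24 of 26 Onecut cells (92.3%, 74.9 to 99.1), beside 47.3% of all cells of those times with an Ebf gene. This pooled share was added after the data were seen, and 10 TPM gave the highest value of the levels tried. It was 76.5% at 5 TPM and 81.0% at 20 TPM.

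Ebf cells were more numerous than Onecut cells at this level (52 and 26), so many of them had to be without an Onecut gene. When cells were first split at the median number of genes above 0 and the expected number was taken in each depth group, it was 13.4 in place of 12.8. In the Sod1-low set 11 of 13 Onecut cells at 18, 24 and 30 h had an Ebf gene (84.6%, 54.6 to 98.1), with 5.99 expected and 78 Ebf cells in all.

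At the first time point of each set no cell held both families at that level. At 0 h there were 7 Ebf cells and 2 Onecut cells at 10 TPM, and at 6 h 10 and 6, with 0 in common at either time (expected 0.378 and 1.13). With so few expected, these counts of 0 are too small to tell. Above 0, both families were in 8 of 37 cells at 0 h (8.11 expected). At 6 h they were in 20 of 53 (17.5 expected), which was 62.5% of the Onecut cells. Of all kept cells, those holding both at 10 TPM made up 11.5, 27.3 and 42.9% at 12, 36 and 48 h, and 3.57 and 10.5% at 18 and 30 h. When every value above 0 was counted, 70.5% of Onecut cells at 12 to 48 h had an Ebf gene. The families were then about equally common, and the share of Onecut cells with an Ebf gene and of Ebf cells with an Onecut gene was 62.1 and 66.7% at 12 h, 76.0% for both at 36 h and 85.7% for both at 48 h.

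**Figure D3:**
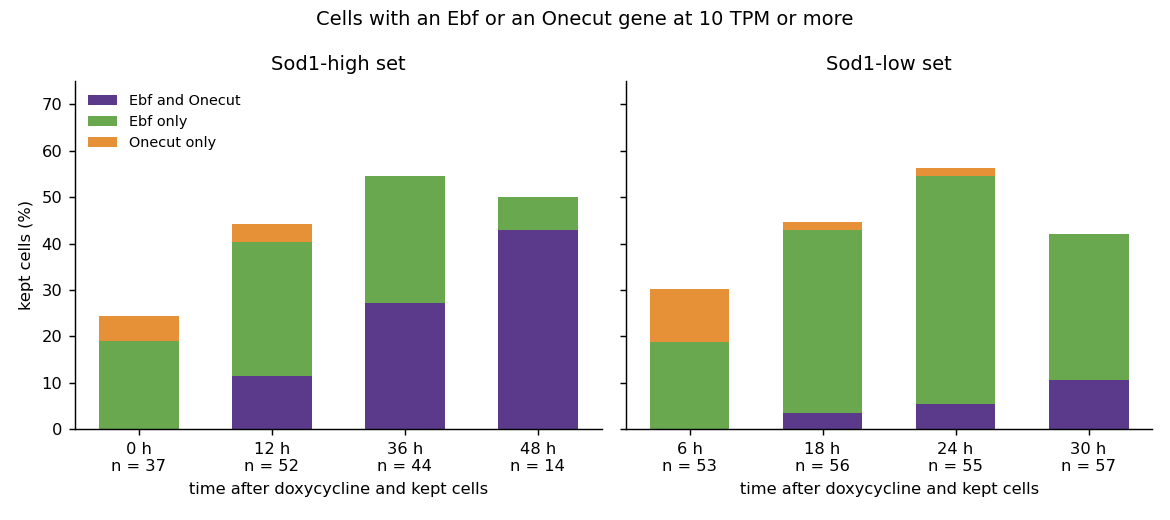
Share of kept cells (percent) with an Ebf and an Onecut gene (purple), an Ebf gene only (green) or an Onecut gene only (orange) at 10 TPM or more, by time in the Sod1-high set (left) and the Sod1-low set (right), with the number of kept cells under each bar. Orange is seen at 0 and 6 h with no purple, and at 36, 48 and 30 h no cell is orange.

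LHX3, a LIM homeodomain factor of the cassette, was above 0 in most cells of the Sod1-low set, and EBF2 was found mostly in those cells. At 18 h EBF2 was above 0 in 28 of 42 cells with LHX3 (66.7%, 50.5 to 80.4) and in 4 of 14 cells with LHX3 listed at 0 (28.6%, 8.39 to 58.1). At 24 h it was in 65.9% against 28.6%, and at 30 h in 69.2% (52.4 to 83.0) against 16.7% (3.58 to 41.4), where the intervals do not overlap. Its mean at 30 h was 39.8 TPM in cells with LHX3 and 1.37 TPM in cells without. Cells with LHX3 also had more genes above 0 (medians of 6598 and 5602 at 30 h), and the depth split that follows is the only look at its part in these shares.

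Counted over 18 to 30 h, 82 cells had both EBF2 and LHX3 above 0, where 67.6 were expected if the genes were spread over cells independently at each time. The ratio of 1.21 was 1.18 with expected numbers from depth groups, and the median of all 9840 genes was 1.07. For EBF1 the ratio was 1.13, for EBF3 1.30, for ONECUT2 1.15 and for ONECUT3 0.98. Thus 4 of the 5 members common enough to be compared were at or above 1.1, beside 29.4% of all genes. Those genes were not matched to the members by share of cells, on which the possible spread of the ratio depends. ONECUT3, with 30 joint cells where 30.5 were expected, was the member below 1.

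At 10 TPM the ratio of EBF2 with LHX3 was 1.55. LHX3 itself was in fewer cells at this level (55.4 to 58.2% at 18, 24 and 30 h) than above 0 (68.4 to 75.0%), which leaves room for a higher ratio. Above 0, 28 of 32, 27 of 31 and 27 of 30 EBF2 cells at these times had LHX3, a share much like that at 10 TPM. Over 6819 genes compared at this level the median ratio was 1.06, with quartiles of 1.00 and 1.14. Over 18 to 30 h LHX3 reached 10 TPM in 96 of 168 cells. Those 96 cells held 62 of the 70 cells with EBF2 at that level, 18 of 19 with EBF1 and 11 of 11 with EBF3. They also held 9 of 9 with ONECUT2 and 4 of 4 with ONECUT1. The expected numbers were 40.0, 10.8, 6.36, 5.14 and 2.32 in that order. Members other than EBF2 were too rare at 10 TPM to be set beside all genes, and their counts are small.

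Over 12 and 36 h, in the Sod1-high set, 40 of 96 cells had LHX3 at 10 TPM. They held 17 of 29 EBF2 cells (expected 12.3), 12 of 28 EBF1 cells (11.1) and 8 of 19 ONECUT2 cells (7.46). For EBF3 at 36 h, the 5 positive cells were all among the 29 cells with LHX3 listed at 0 (expected with LHX3 1.70), which is too few to tell. At 48 h the 6 EBF2 cells included 0 of the 3 LHX3 cells, and such counts are too small to order.

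**Figure D4:**
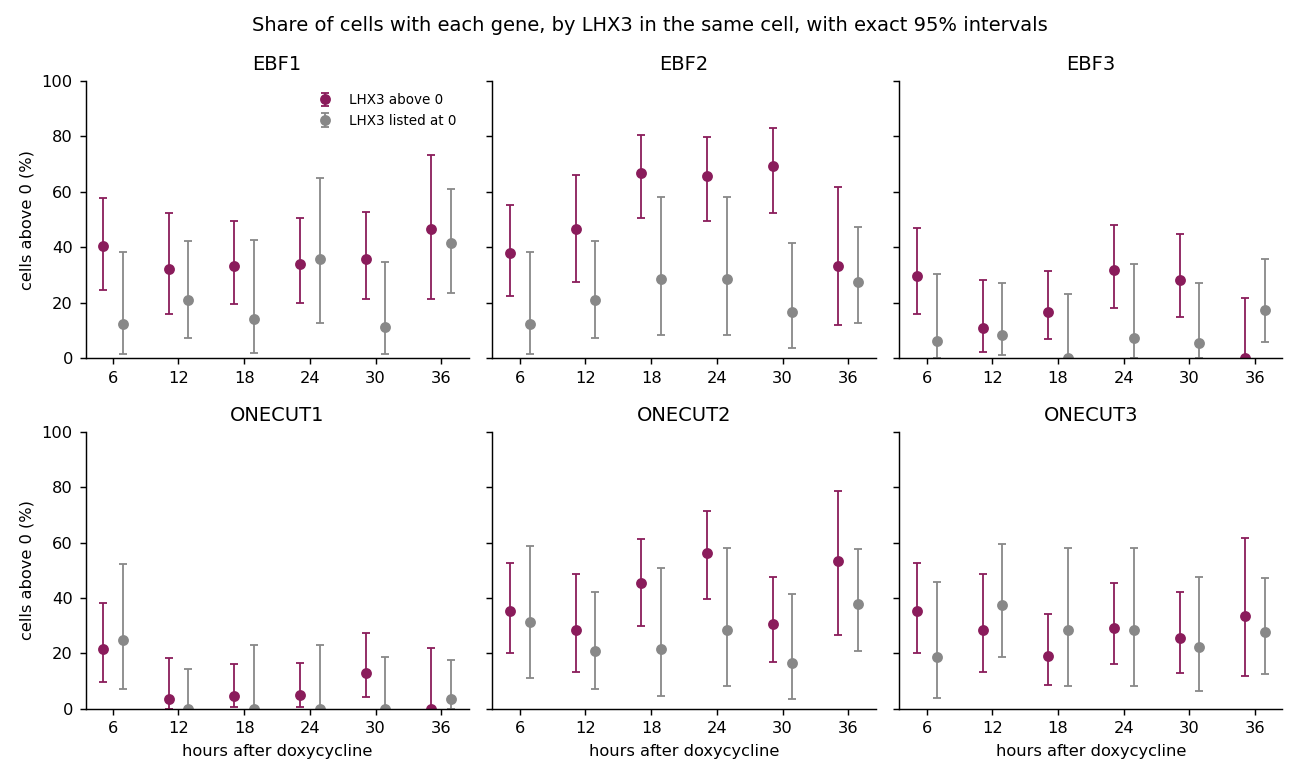
Share of cells above 0 (percent) for each gene at 6 to 36 h, in cells with LHX3 above 0 (purple) and in cells with LHX3 listed at 0 (grey), with exact 95% intervals. EBF2 is higher in purple at all 6 times, most so at 30 h (69.2 against 16.7%), and ONECUT3 shows no steady order.

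Among themselves the members were detected together more often than their shares alone give. Over 18 to 30 h all 15 pairs had more joint cells than expected, with ratios from 1.08 (EBF2 with ONECUT3) to 2.68 (ONECUT1 with ONECUT3, 6 cells) and a median of 1.41. With depth groups the median was 1.30. Each group still mixed cells of unlike depth: at 18 h the lower one ran from 2109 genes to the median of 7348. For comparison, the median ratio of all genes with EBF2 was 1.09, and 1.04 with depth groups. Most genes thus stood slightly above 1 with EBF2 (quartiles 1.03 and 1.16), so a ratio above 1 is common. The 4 members compared with EBF2 had a median of 1.345, but EBF2 with ONECUT3 (1.08) lay below the median of all genes.

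The largest well-filled pair was EBF3 with ONECUT2, with 23 joint cells where 12.8 were expected (1.80). EBF2 with ONECUT2 gave 48 against 35.7 (1.35) and EBF1 with EBF2 38 against 28.3 (1.34). At 36 h, in the other set, EBF2 and ONECUT2 shared 8 cells at 10 TPM where 3.27 were expected. EBF1 and EBF3 at 10 TPM shared 0 of 168 cells at 18 to 30 h, with 1.24 expected, which is too few to tell.

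**Figure D5:**
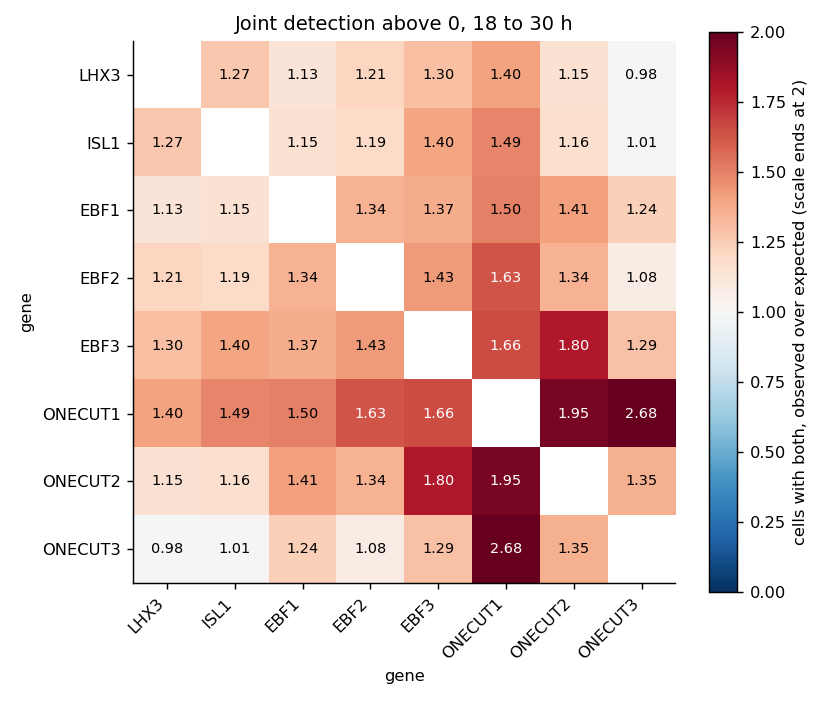
Cells with both genes above 0, observed over expected, for each pair of the 6 members, LHX3 and ISL1 over the 168 kept cells of 18, 24 and 30 h; red is above 1 and the colour scale ends at 2. All 15 pairs of members lie above 1, and the row of ONECUT3 is the palest against LHX3 (0.98).

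The genes most like each member across cells were sought as the mean Spearman rho over 18, 24 and 30 h (56, 55 and 57 cells), among 11613 genes. These are descriptions, as the genes share cells and depth. For EBF2 they were RTN1 (0.57), NEUROD1 (0.56), TAGLN3 (0.56), LHX3 (0.54) and SNX18 (0.54), where the median of all genes was 0.074. Neurod1 is a proneural basic helix-loop-helix factor, and Rtn1 and Tagln3 are genes of young neurons. All 5 stayed the first 5 when the number of genes above 0 was removed from both sides.

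For EBF3 the leading genes were AK044422 (0.55), TUBB3 (0.43), MEIS2 (0.43), RTN1 (0.41) and NHLH1 (0.39), and for ONECUT2 AK044422 (0.47), SCG3 (0.46), MTAP1B (0.45), RAPGEF5 (0.44) and RTN1 (0.43). AK044422 is a transcript named only by its database entry, and Tubb3 and Mtap1b encode neuronal tubulin and a microtubule-associated protein. For EBF1 they were ZEB1 (0.41), TUBA1A (0.39), WDFY3 (0.37), AK044422 (0.37) and MTAP2 (0.37). For ONECUT3 no gene passed 0.34 (ALDH1L2), followed by AK183458, MS4A6C, MAN1B1 and ITGA2B (0.29 to 0.31), weak values that are no finding. ONECUT1 was too rare to be ranked.

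Genes around the members were followed in lists. Of the known partners of Ebf proteins, ZFP423, a zinc-finger protein that binds Ebf1, was above 0 in 18.9% of cells at 6 h and 63.2% at 30 h, with a log2 fold change of 1.49. ZFP521, a related protein known to restrain Ebf1, had no cell above 0 at 6 h and 21.1% of cells above 0 at 30 h, with a mean of 2.85 TPM. At 12 h against 0 h only ZFP423 could be compared, at -0.31. Of the other cut-domain homeobox genes, CUX1 was at 1.01 and SATB1 at -0.19 at 30 h against 6 h, and CUX2 was too rare to be compared.

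Over all genes compared, 19.3% were at least 2-fold higher and 13.1% lower at 12 h against 0 h, and 14.4% higher and 5.48% lower at 30 h against 6 h; none of the members compared was 2-fold lower in either. Of the proneural genes, 6 of 10 compared were higher at 12 h and 2 lower. At 30 h 4 of 11 were higher and 2 lower. ST18 was at 2.21, GADD45G at -2.15 and INSM1 at -1.86. Of 15 pan-neuronal genes 11 of 12 compared were higher at 12 h and 10 of 15 at 30 h, led by STMN2 (3.56), SYT1 (3.48) and NEFL (3.02).

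Of the motor neuron genes 3 of 4 compared were higher and 1 lower at 12 h, and 5 of 7 higher and 1 lower at 30 h. LHX4 was at 2.13 and LMO4 at 2.03 at 30 h. Of 8 pluripotency genes 3 were lower and 1 higher at 12 h, and 5 lower at 30 h, with UTF1 at -2.97, POU5F1 at -2.50 and DPPA5A at -1.52.

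Within a time point, cells with EBF2 differed from cells without it in the same lists. Averaged over 18, 24 and 30 h, the median log2 difference of mean level, cells with EBF2 minus cells without, was 1.14 over 13 proneural genes, of which 8 were higher at all 3 times. It was 1.20 over 15 pan-neuronal genes (9 higher at all 3 times), 0.63 over 7 motor neuron genes (4 higher) and -0.80 over 8 pluripotency genes (5 lower). Over all 12790 genes the median was 0.18, with 25.8% higher and 10.4% lower at all 3 times. NEUROD4, a proneural factor, differed by 5.26, 4.24 and 3.95 at the 3 times, while POU5F1 showed no steady direction (-0.52, 0.63 and -0.35).

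The same was computed for cells with ONECUT2 and with EBF1. For ONECUT2 the medians were 1.14 for proneural genes (11 of 13 higher at all 3 times), 1.22 for pan-neuronal genes (13 of 15) and -0.76 for pluripotency genes (6 of 8 lower). Over all genes the ONECUT2 median was 0.07, with 18.7% higher and 11.5% lower at all 3 times. For EBF1 the medians were 0.83 (7 of 13 higher), 1.34 (12 of 15 higher) and -0.90 (2 of 8 lower). Over all genes the EBF1 median was 0.02, with 15.4% higher and 13.5% lower. ST18 was higher in cells with EBF1 at 18, 24 and 30 h, by 2.32, 3.03 and 3.91. Cells with each of these members had more genes above 0 than cells without it. At 18 h the medians were 7834 and 7158 for EBF2, 8050 and 6688 for ONECUT2 and 8184 and 7217 for EBF1, and the part of depth in these differences was not tested.

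Markers of other tissues in which Ebf and Onecut genes are known were followed as well. The 6 B cell genes summed to at most 4.51 TPM of mean level at any time, with CD79B and RAG1 at 0 in every kept cell. The 6 fat and mesenchyme genes summed to 0.89 to 6.56 TPM, and the 6 genes of V2 interneurons and horizontal cells to 0.71 to 8.15 TPM. The 5 sensory neuron genes summed to 3.14 TPM at 0 h and 32.5 TPM at 12 h, the step at which EBF1 and EBF2 were also higher. Most of this was POU4F1, a homeodomain factor of sensory neurons, at 3.09 TPM (13.5% of cells) and 23.8 TPM (26.9% of cells). At the other times the sensory sum was 5.10 to 28.6 TPM. The 9 liver, pancreas and endoderm genes summed to 0.26 to 5.68 TPM except at 48 h, where they reached 49.2 TPM in 14 cells with PROX1, which young neurons also express, at the front. At 30 h against 6 h none of the 2 sensory, 3 fat and mesenchyme and 1 endoderm genes common enough to be compared was 2-fold higher or lower, and no B cell gene could be compared. The part of such cells in the members' values was not tested.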

How the data were processed

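Single cells were sorted live into 96-well plates and made into libraries with a modified SMART-Seq2 protocol without random molecular tags, per the labels' protocols, then read as 50-base single ends. PCR copies are therefore not independent molecules. The deposited values are TPM, and the authors' column names carry the word rsem. Tools listed are bcl2fastq and Picard, with build mm10, per the submitters' processing notes. For the aligner and annotation, nothing was given in the sources read here, and strand was not kept, so overlapping and antisense genes cannot be separated.

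Columns were assigned to cells and time points by their titles. Cells with under 2000 genes above 0 were left out, 400 of 768, and no doublet caller was run. Means, shares and log2 ratios of (mean TPM + 1) were computed per time point with Python 3.11.15, numpy 2.4.6, pandas 2.3.3 and scipy 1.17.1, and drawn with matplotlib 3.10.9. Each time point is 1 sample, so no test was made. Expected joint counts are products of shares at each time point, also within cells below and above the median number of genes. The scripts were checked on simulated data. The members and the 12 gene lists (90 genes, of which 87 matched by symbol, 1 by synonym and 2 not) were chosen with earlier results of these data known. Named genes are the 5 most like each member and, in each list, the 3 of largest change; other names were chosen after their values were seen. Some genes of these lists are not reported here by name. Alternatives changed the cells kept, the pseudocount, the level and the onset share.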

Additional observations from a re-analysis of the deposited data

Results flagged for a closer look

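Cells left out for having under 2000 genes above 0 still held members. At 48 h EBF1 was above 0 in 15 of 82 such cells (18.3%, exact 95% interval 10.6 to 28.4), and ONECUT2 in 16 of 82 (19.5%, 11.6 to 29.7). The corresponding left-out cells at 0 h had either gene in 0 of 59. These values stand out because they come from cells that enter none of the comparisons. The left-out cells had a median of 1044 genes above 0 at 48 h and 366 at 0 h, and the part of this depth gap was not tested.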

How the results depend on the processing

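Of 74 alternative values, 51 kept their size and direction, 22 moved and 1 changed sign. For EBF2 at 12 h against 0 h (5.29) the log2 fold change was 1.30 over all cells, 4.46 in odd-numbered and 7.48 in even-numbered cells, 3.66 with a pseudocount of 10, 6.68 without the highest cell and 0 from medians over cells. For EBF2 at 30 h against 6 h (1.75) it was -0.031 over all cells, 4.03 in odd-numbered and 0.71 in even-numbered cells, 1.105 with a pseudocount of 10 and 1.06 from medians. Over all cells the EBF2 share was 18.8% at 12 h and 31.2% at 30 h and the ONECUT2 share at 36 h was 26.0%, and the latter was 27.3% at 10 TPM. The joint ratio of EBF2 and LHX3 was 1.90 over all cells and 1.55 at 10 TPM. At 30 h itself 5 members were above 0 in at least 10% of cells, 1 reached 10 TPM in that share, and 3 were above 0 in at least 25%. Onecut cells with an Ebf gene at 12 to 48 h were 70.5% above 0 and 100% in even-numbered cells, and at 18 to 30 h 100% both at 20 TPM and in odd-numbered cells. The cause of these differences was not tested. A minimum of 4000 genes left no value at 36 h. No paired analysis was possible because the numbers in the titles count cells and each time point is 1 sample. Depth limits every share: with 14 cells at 48 h, 0 cells allow a share with a value above 0 of up to 21.4%, which bounds detection and not expression, as HPRT was above 0 in 7.14% of these cells.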
